A study of Mus musculus with 12 samples.

Results

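Genes that glucocorticoids are known to induce were followed in livers of mice that were fed or had fasted for 12, 24 or 72 hours. They were chosen by name: the genes sought on the array were Pck1, Tat, Tdo2, Fkbp5, Tsc22d3, Sgk1 and Cdkn1a, under these symbols and older ones such as Gilz for Tsc22d3. Of these 7 genes, 6 had a probe, with 1 probe each, among the 10823 distinct gene names that the array carried, and no probe bore the name Tat. The members were thus Pck1 and Tdo2, which encode metabolic enzymes, Fkbp5 and Tsc22d3, which encode regulators that glucocorticoids induce, and Sgk1 and Cdkn1a, which encode a kinase and a cell-cycle inhibitor.

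The animals were male FVB mice of 6 weeks of age, with no transgene, from which chow was removed for 12, 24 or 72 hours or not at all. Each group had 6 animals, whose liver RNA was pooled by 2 and measured on 3 arrays, so that an array and not a mouse is the replicate here. Every array also carried the same reference RNA, pooled from 6 livers of fed mice, and all values below are log2 ratios of sample over this reference unless stated otherwise. Per the labels, mice were held in metabolic cages, were warmed by a lamp from 24 hours of fasting on, and were all killed at the same hour of the morning, so that warming and fasting cannot be told apart at 72 hours.

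Glucocorticoids, corticosterone in the mouse, are released by the adrenal cortex during fasting and bind the glucocorticoid receptor (Nr3c1), which then moves to the nucleus and binds DNA as a dimer. In liver, the hormone acts together with glucagon, which raises cAMP, on the genes of glucose production and amino-acid breakdown. Pck1 encodes cytosolic phosphoenolpyruvate carboxykinase, which turns oxaloacetate into phosphoenolpyruvate in gluconeogenesis, and Tdo2 encodes tryptophan 2,3-dioxygenase, which opens the ring of tryptophan in the first step of its breakdown. Fkbp5 encodes a co-chaperone that lowers the affinity of the receptor for its hormone and forms part of a negative feedback, whereas Tsc22d3 encodes the glucocorticoid-induced leucine zipper, an anti-inflammatory regulator. Sgk1 encodes the serum- and glucocorticoid-regulated kinase, and Cdkn1a encodes p21, an inhibitor of cyclin-dependent kinases.

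Because members of a regulated group may share letters in their promoters, the windows from 250 bases before to 50 bases after the start of each RefSeq transcript (build GRCm38.p6) were searched on both strands. All 6 members matched, with 14 windows between them, since Sgk1 has 6 starts, Tsc22d3 has 3 and Cdkn1a has 2. The searched letters were AGAACA, the hexamer of the glucocorticoid receptor's element, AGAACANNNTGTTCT, the inverted repeat of that hexamer with a spacer of 3 bases (which therefore contains the hexamer on either strand), TGACG, the core of the cAMP response element, and GTAAACA, a forkhead site. The bases before the start are shown for Pck1, the gene that leads this group, for Fkbp5, the member with the highest ratios at 24 hours, and for the start of Sgk1 that carried the inverted repeat, with matches in capitals. They lie at chr2:173152823-173153072 (plus strand), chr17:28486150-28486399 (minus strand) and chr10:21993640-21993889 (plus strand), and each is written 5′ to 3′ on the strand of its gene.
Pck1: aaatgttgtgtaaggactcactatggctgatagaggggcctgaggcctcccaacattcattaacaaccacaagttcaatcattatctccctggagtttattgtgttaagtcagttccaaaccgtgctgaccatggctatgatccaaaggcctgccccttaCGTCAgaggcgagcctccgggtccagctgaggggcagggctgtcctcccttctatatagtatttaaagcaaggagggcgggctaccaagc
Fkbp5: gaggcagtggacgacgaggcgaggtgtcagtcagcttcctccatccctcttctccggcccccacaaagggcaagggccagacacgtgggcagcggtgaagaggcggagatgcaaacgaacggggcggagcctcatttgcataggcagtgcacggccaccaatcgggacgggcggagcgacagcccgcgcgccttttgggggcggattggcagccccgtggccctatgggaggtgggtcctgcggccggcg
Sgk1: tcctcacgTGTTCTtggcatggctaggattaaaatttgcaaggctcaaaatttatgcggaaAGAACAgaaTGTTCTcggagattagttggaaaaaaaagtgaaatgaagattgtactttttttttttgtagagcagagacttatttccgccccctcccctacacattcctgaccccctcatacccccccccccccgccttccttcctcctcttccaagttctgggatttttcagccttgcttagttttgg
In the Pck1 window, the capitals mark TGACG on the opposite strand, with the leftmost base 90 bases before the start. In the Sgk1 window, they mark the hexamer 242 bases before the start and the inverted repeat 189 bases before it, which was found in 1 of the 14 windows of the members and in 3 of all 32851 windows (0.00913%). The hexamer was present in 4 of the 14 windows, of Sgk1 and Tsc22d3, and in 19% of all windows, and TGACG in 3 of the 14, of Pck1, Tsc22d3 and Sgk1, and in 20.8% of all. GTAAACA was present in 0 of the 14 windows and in 3.65% of all, and the Fkbp5 window held none of the letters sought. A match describes these letters only, and receptor binding was not measured.

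Of 8 listed hepatocyte marker genes, Apoa1, Ttr and Cyp2e1 had a probe with an unambiguous name, and all were well above background on all 12 arrays. So were the macrophage marker Csf1r and the acinar marker Cpa1, so that this does not identify the tissue. The mean log2 sample signal in fed liver was 15.8 for Apoa1 and 15.7 for Ttr. It was 7.91 and 6.88 for the probes of Cyp2e1, beside 11.9 for Csf1r. The median sample signal was 4.72 times background on replicate 2 of the 12 h group and 3.5 times on replicate 3 of the 24 h group, and 5.34 to 10.6 times on the other 10 arrays. This pair of arrays is called the low-signal pair below, and results without it are given where stated. The scanner software had marked 0.345% to 24.7% of the probes of an array as outliers, and such spots were treated as missing, which touched 6 of the 72 member spots. All 72 member spots were well above background and 0 were saturated. The images had been quantified on 3 days: day A held fed replicate 1 and the low-signal pair, day B held the other fed arrays and all 72 h arrays, and day C held the remaining 12 h and 24 h arrays and no fed array.

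Pck1, Fkbp5 and Cdkn1a were higher on every fasted array that gave a value than on every fed array that did, beside 0.611% of all probes. Tdo2 and Sgk1 were so on every 72 h array, beside 9.26% of all probes. The marked spot of Pck1 on 12 h replicate 2, at 0.17, lay below fed replicates 1 and 2. With all 12 arrays, 0 of the 6 members passed the threshold of a Benjamini-Hochberg adjusted p under 0.05 in limma with a change of at least 1.4-fold at 12, 24 or 72 hours, where 0.00497%, 0.00497% and 0.00996% of all probes passed. At an unadjusted p under 0.05, 3 members (Pck1, Fkbp5 and Cdkn1a) differed at 12 hours, 2 (Pck1 and Fkbp5) at 24 hours and 3 (Pck1, Fkbp5 and Cdkn1a) at 72 hours, all higher, beside 3.92%, 3.04% and 1.55% of all probes in either direction. Without the low-signal pair, Pck1 and Fkbp5 passed the adjusted threshold as higher at every time point, which was 2 of 6 members beside 1.71%, 5.21% and 0.687% of all probes, while 0 members passed as lower, beside 0.895%, 3.61% and 0.149%. In whole liver, fewer cells of a type and less RNA per cell cannot be told apart.

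**Figure D1:**
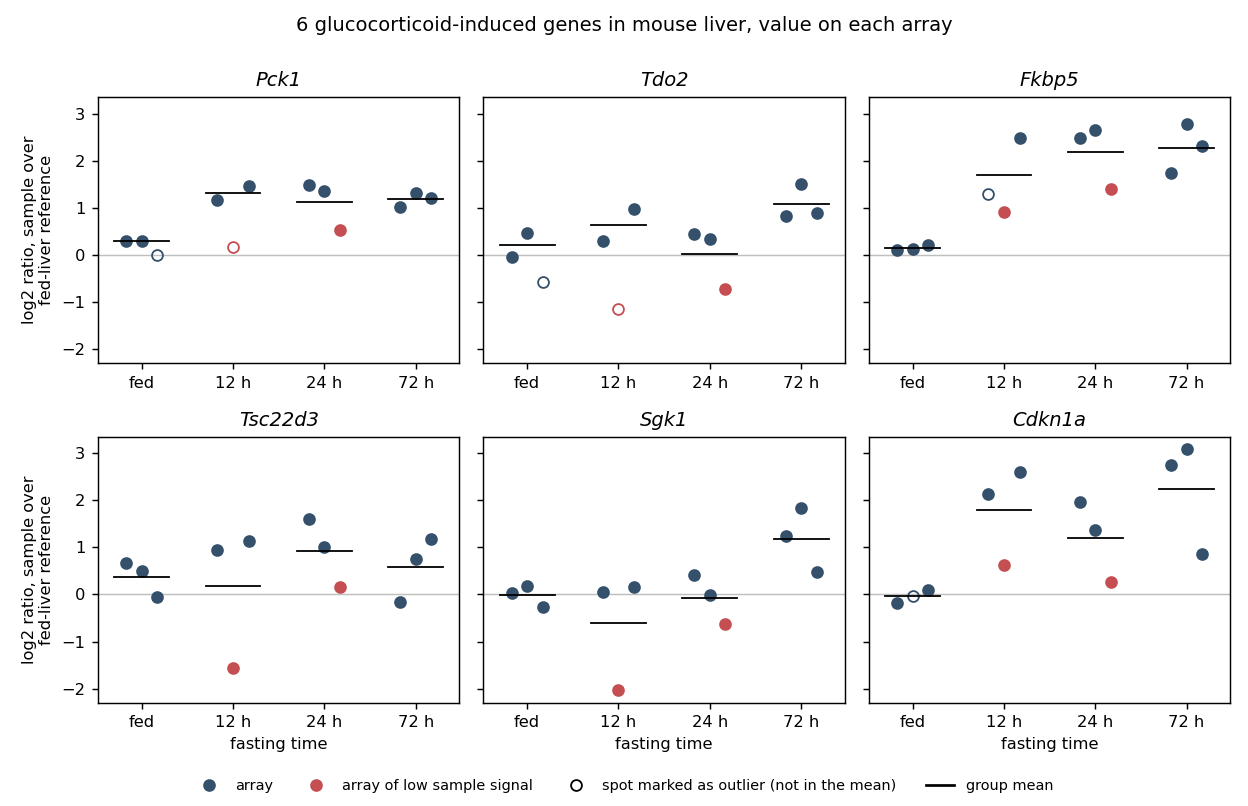
Log2 ratio of sample over fed-liver reference (y axis) of each member on each array, by fasting time (x axis); filled points are arrays, red points the low-signal pair, open points spots marked as outliers and left out of the group means, which are the black lines. The filled fasted points of Pck1 and Fkbp5 lie above the filled fed points at each time, while the open 12 h point of Pck1, at 0.17, lies below the filled fed points, and the filled red points are the lowest of their group wherever they have a value.

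Pck1 had ratios 1.77- to 2.02-fold those of fed liver at the 3 fasting times. Its log2 ratio was 0.31 and 0.30 on fed replicates 1 and 2, with the spot of replicate 3 marked as an outlier. It was 1.18 and 1.46 on replicates 1 and 3 after 12 hours, with the spot of replicate 2 marked, 1.48, 1.35 and 0.54 after 24 hours, and 1.02, 1.32 and 1.21 after 72 hours. The lowest fasted value, 0.54, came from the low-signal array of the 24 h group, and it still lay above both fed values. The raw sample signal, before any normalization, was 4495.5 to 4977.5 on the fed arrays and 11486 to 27626 on the fasted arrays outside the low-signal pair, on which it was 714 and 1237.

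The difference from fed was 1.02 on the log2 scale at 12 hours (SE 0.31, 2.02-fold, unadjusted p = 0.00948, adjusted p = 0.956 in limma). It was 0.82 at 24 hours (SE 0.28, 1.77-fold, unadjusted p = 0.0172, adjusted p = 1.00) and 0.88 at 72 hours (SE 0.28, 1.84-fold, unadjusted p = 0.0123, adjusted p = 1.00). Without the low-signal pair, the differences were 1.02, 1.12 and 0.88, with adjusted p-values in limma of 0.0159, 0.00555 and 0.0220. The steps between fasting times were -0.19 (SE 0.28) from 12 to 24 hours and 0.06 (SE 0.25) from 24 to 72 hours, each smaller than its SE, and the arrays of these groups overlapped. Within day C, the 24 h arrays exceeded the 12 h arrays by 0.10.

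For all fasted arrays against fed, the difference of Pck1 in limma was 0.91 (SE 0.24, 1.87-fold, unadjusted p = 0.00500, adjusted p = 1.00). Over the 8 fasted and 2 fed arrays with a value, the difference in means was 0.89, and the exact two-sided permutation test gave p = 0.0444, which is the smallest p that these 45 arrangements allow. With the marked spots kept, 9 fasted arrays stood against 3 fed arrays, the difference was 0.88 and the exact permutation test gave p = 0.0273. The kept spots had ratios of 0.00089 on fed replicate 3 and 0.17 on 12 h replicate 2, so that this 12 h array then lay below fed replicates 1 and 2. Among all probes, 0.00996% passed the adjusted threshold in this comparison, and 0.274% passed an unadjusted p under 0.01 with at least 1.4-fold higher expression, among which were Pck1 and Fkbp5.

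Within day B, the 72 h arrays exceeded fed replicate 2 by 0.88 on average in Pck1. Within day A, the 24 h array exceeded fed replicate 1 by 0.23, and the 12 h array, with its marked spot kept, lay 0.14 below it (a difference of -0.14). With the day of quantification in the fit, the difference of Pck1 from fed was 0.13 at 12 hours (unadjusted p = 0.670), 0.23 at 24 hours (unadjusted p = 0.370) and 0.88 at 72 hours (unadjusted p = 0.00248). As day A is also the day of the low-signal pair and day C holds no fed array, the day and the low signal cannot be told apart at 12 and 24 hours. From the sample channel alone, without the ratio to the reference, the differences were 1.94, 1.74 and 1.07.

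**Figure D2:**
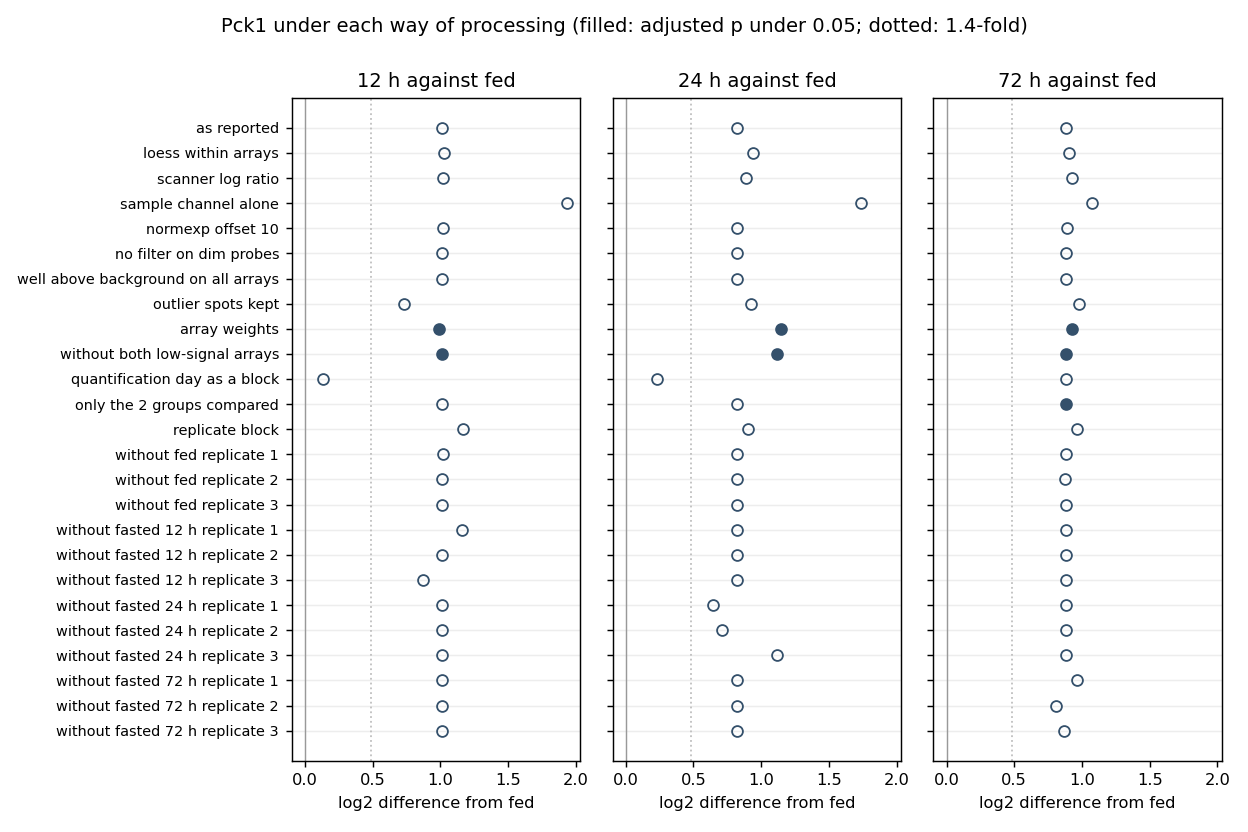
Difference of Pck1 from fed on the log2 scale (x axis) under each way of processing (y axis) at 12, 24 and 72 hours; filled points have an adjusted p under 0.05 and the dotted line marks 1.4-fold. All points lie above 0, the lowest being 0.13 at 12 hours and 0.23 at 24 hours with the day of quantification in the fit.

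Tdo2, the tryptophan-degrading enzyme, lay above fed without overlap at 72 hours, and overlapped with fed at 12 and 24 hours. Its log2 ratio was -0.04 and 0.46 on fed replicates 1 and 2, 0.29 and 0.98 on 12 h replicates 1 and 3, 0.44, 0.33 and -0.72 on the 24 h arrays, and 0.83, 1.50 and 0.89 on the 72 h arrays, while the spots of fed replicate 3 and 12 h replicate 2 were marked as outliers. The 3 values at 72 hours lay above all fed and 24 h values, and the lowest value was that of the low-signal array of the 24 h group. The difference from fed was 0.43 (SE 0.44), -0.19 (SE 0.40) and 0.86 (SE 0.40) at 12, 24 and 72 hours, with an unadjusted p of 0.0591 at 72 hours. The step from 24 to 72 hours was 1.06 (SE 0.36, unadjusted p = 0.0163, adjusted p = 1.00), and without the low-signal pair the 24 h mean was 0.39 instead of 0.02. With the day of quantification in the fit, the differences from fed were -0.43, -0.68 and 0.61. From the sample channel alone, without the ratio to the reference, they were 0.69, 0.32 and 0.18.

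Fkbp5, the co-chaperone of the receptor, had the largest differences from fed relative to their error among the 6 members at 24 and 72 hours. Its log2 ratio was 0.10, 0.12 and 0.21 on the fed arrays, 0.90 and 2.48 on 12 h replicates 2 and 3 (the spot of replicate 1 was marked, at 1.30), 2.47, 2.64 and 1.41 on the 24 h arrays, and 1.73, 2.78 and 2.31 on the 72 h arrays. The fed arrays had an SD of 0.06, and every fasted array, including the low-signal pair, lay above them. The difference from fed was 1.55 at 12 hours (SE 0.50, 2.92-fold, unadjusted p = 0.0112, adjusted p = 0.956), 2.03 at 24 hours (SE 0.44, 4.09-fold, unadjusted p = 0.00107, adjusted p = 0.975) and 2.13 at 72 hours (SE 0.44, 4.39-fold, unadjusted p = 0.000757, adjusted p = 0.750). On the 10 arrays without the low-signal pair, the differences were 2.34, 2.42 and 2.13, with adjusted p-values in limma of 0.0123, 0.00251 and 0.00418, where the 12 h value rests on 1 array that is assumed to vary like the others. Without 12 h replicate 3 instead, which leaves the low-signal array of that group, the difference at 12 hours was 0.76 (unadjusted p = 0.164 in limma).

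Within day B, the 72 h arrays exceeded the fed arrays by 2.11 in Fkbp5, and within day A, the 12 h and 24 h arrays exceeded fed replicate 1 by 0.80 and 1.31. With the day in the fit, the differences were 0.92, 1.19 and 2.11, with unadjusted p-values of 0.0419, 0.0142 and 3.39e-05. The direction was the same on each day that held fed arrays. The steps between fasting times were 0.48 (SE 0.50) from 12 to 24 hours and 0.10 (SE 0.44) from 24 to 72 hours.

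Tsc22d3, the leucine zipper, overlapped with fed at each time. Its log2 ratio was 0.66, 0.51 and -0.04 on the fed arrays, 0.95, -1.57 and 1.13 on the 12 h arrays, 1.60, 1.01 and 0.15 on the 24 h arrays, and -0.15, 0.74 and 1.18 on the 72 h arrays. Each fasted group held at least 1 array within the range of the fed arrays or below it, and the value of -1.57 came from the low-signal pair. The differences from fed were -0.20, 0.55 and 0.21 (SE 0.66 each), with unadjusted p-values of 0.761, 0.424 and 0.750. When the low-signal pair was left out they were 0.66, 0.93 and 0.21, and with the day in the fit -1.75, -0.99 and 0.36. The direction at 12 hours turned when the pair was left out, that at 24 hours with the day in the fit, and that at 72 hours when 72 h replicate 3 was left out (-0.078).

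Sgk1, the kinase whose promoter window with the inverted repeat is shown above, lay above fed without overlap at 72 hours and overlapped with fed at 12 and 24 hours. Its log2 ratio was 0.02, 0.19 and -0.28 on the fed arrays, 0.05, -2.04 and 0.16 on the 12 h arrays, 0.41, -0.0020 and -0.63 on the 24 h arrays, and 1.24, 1.84 and 0.47 on the 72 h arrays. The 72 h arrays lay above every fed, 12 h and 24 h array, and the values of -2.04 and -0.63 came from the low-signal pair. The difference from fed was 1.20 at 72 hours (SE 0.55, 2.30-fold, unadjusted p = 0.0512, adjusted p = 1.00), and -0.59 and -0.05 at 12 and 24 hours (SE 0.55 each). The difference between 72 and 12 hours was 1.79 (SE 0.55, 3.46-fold, unadjusted p = 0.00768, adjusted p = 0.729), and that between 72 and 24 hours was 1.25 (SE 0.55, unadjusted p = 0.0435, adjusted p = 1.00). Without the low-signal pair, the 12 h mean was 0.10 instead of -0.61. The differences from fed were then 0.12, 0.23 and 1.20 at 12, 24 and 72 hours. Within day B, the 72 h arrays exceeded the fed arrays by 1.22, and within day A the 12 h and 24 h arrays gave differences of -2.06 and -0.65 from fed replicate 1. With the day in the fit, the differences were -1.62, -1.09 and 1.22, with unadjusted p-values of 0.0175, 0.0852 and 0.0127.

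Cdkn1a, the inhibitor p21, had the highest ratio of the 6 members on any array, 3.09, beside a wide spread between arrays. Its log2 ratio was -0.17 and 0.09 on fed replicates 1 and 3 (the spot of replicate 2 was marked, at -0.03), 2.13, 0.62 and 2.60 on the 12 h arrays, 1.96, 1.37 and 0.27 on the 24 h arrays, and 2.74, 3.09 and 0.86 on the 72 h arrays. All 9 fasted arrays lay above both fed values, the lowest being those of the low-signal pair and 72 h replicate 3. The difference from fed was 1.82 (SE 0.76, 3.54-fold, unadjusted p = 0.0370), 1.24 (SE 0.76, 2.36-fold, unadjusted p = 0.133) and 2.27 (SE 0.76, 4.82-fold, unadjusted p = 0.0135) at 12, 24 and 72 hours, with adjusted p-values of 0.956, 1.00 and 1.00. Leaving out 1 array at a time moved the difference at 72 hours between 1.84, without 72 h replicate 2, and 2.95, without 72 h replicate 3. Its spots were dim, with a raw sample signal of 188.5 to 257.5 on the fed arrays over a local background of 42 to 58. Within day B, the 72 h arrays exceeded fed replicate 3 by 2.14, and within day A, the 12 h and 24 h arrays exceeded fed replicate 1 by 0.79 and 0.44. With the day in the fit, the differences were 0.91, 0.33 and 2.14, with unadjusted p-values of 0.288, 0.695 and 0.0165.

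**Figure D3:**
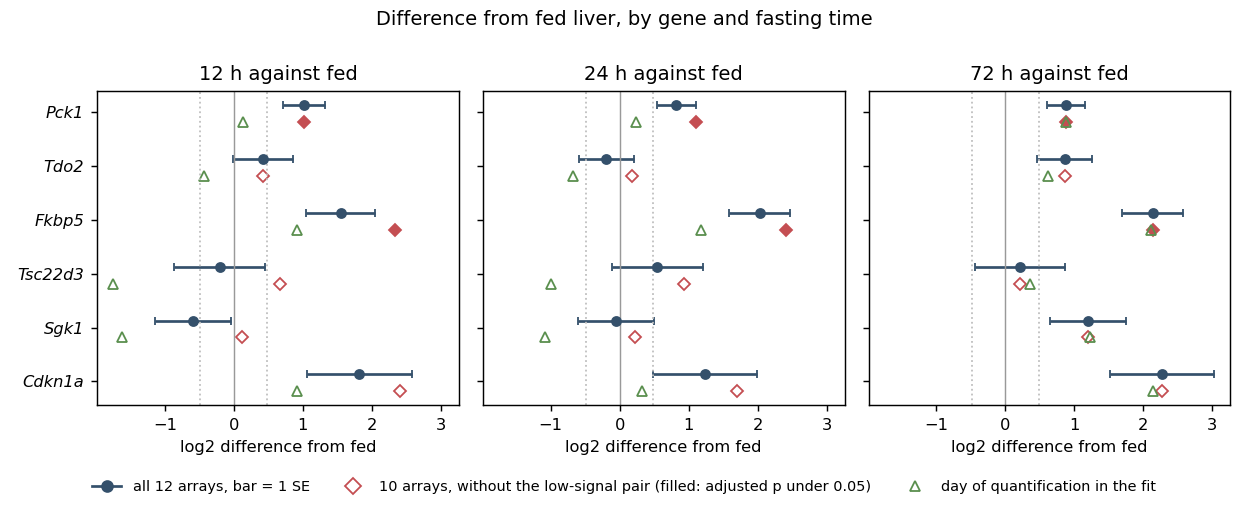
Difference from fed on the log2 scale (x axis) of the 6 members (y axis) at 12, 24 and 72 hours; circles with bars of 1 SE are from all 12 arrays, diamonds from the 10 arrays without the low-signal pair (filled where adjusted p is under 0.05), triangles from the fit with the day of quantification, and dotted lines mark 1.4-fold. Pck1 and Fkbp5 lie to the right of 0 in each panel, and the triangles of Tsc22d3 and Sgk1 lie to the left at 12 and 24 hours.

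Read against the whole array, 3 of 6 members were at least 1.4-fold higher than fed at 12 hours (Pck1, Fkbp5 and Cdkn1a), beside 6.68% of all probes, 4 of 6 at 24 hours (these and Tsc22d3), beside 3.4%, and 5 of 6 at 72 hours (all but Tsc22d3), beside 3.68%. Every fasted array lay above every fed array for Pck1, Fkbp5 and Cdkn1a at 12 hours (6.32% of probes), for the same genes at 24 hours (6.33%), and for these with Tdo2 and Sgk1 at 72 hours (9.26%). Over all fasted arrays together this held for Pck1, Fkbp5 and Cdkn1a, beside 0.611% of all probes. At an unadjusted p under 0.01 with at least 1.4-fold, 1 member was higher at 12 hours (Pck1; 0.378% of probes), 1 at 24 hours (Fkbp5; 0.413%) and 1 at 72 hours (Fkbp5; 0.314%), and 0 were lower (0.278%, 0.229% and 0.115%). Comparisons against fed share the fed arrays, so that their values are not independent of each other. The members were chosen with earlier results of these data known, so that their counts beside all probes are descriptive only.

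Between fasting times, 0 of the 6 members passed the adjusted threshold in limma from 12 to 24, from 24 to 72 or from 12 to 72 hours, where 0% of all probes passed in each. At an unadjusted p under 0.05, 0 members differed from 12 to 24 hours (0.945% of probes), 2, Tdo2 and Sgk1, from 24 to 72 hours (3.42%), and 1, Sgk1, from 12 to 72 hours (4.88%). These differences were all higher at 72 hours. With marked spots left out, Pck1, Fkbp5 and Cdkn1a lay above fed without overlap at 12, 24 and 72 hours, and Tdo2 and Sgk1 at 72 hours. Of all probes, 6.32%, 6.33% and 9.26% did so at these times. With its marked spots kept, Pck1 overlapped with fed at 12 hours. A difference in time course between genes was not tested.

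On 10 of the 10 spots of the low-signal pair that gave a member value, that value was the lowest of its group. Of all probes measured on the 3 arrays of the group, 47.5% were lowest on the 12 h array of the pair and 42.9% on the 24 h array. The part of the low signal in the members' values was not tested.

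The genes whose ratios followed Pck1 most closely were named by Pearson's r over the 10 arrays on which Pck1 gave a value, among 13246 probes measured on all of them. Among those highest in r, of probes with a current symbol, were Tfb2m (r = 0.958), a mitochondrial transcription factor named Hkp1 on the array, Zfp36l1 (r = 0.948), an RNA-binding protein that promotes mRNA decay, Ankhd1 (r = 0.932) and Slc29a1 (r = 0.932), a nucleoside transporter. Slc29a1 lay 0.94, 1.07 and 1.00 above fed at 12, 24 and 72 hours. Without the low-signal pair, over 9 arrays, the 5 genes were Pabpc1, Herpud2, Zfp36l1, Tfb2m and St7l, with r from 0.954 to 0.963. Of the other members, Fkbp5 had r = 0.956 with Pck1 over the 9 arrays on which both gave a value, Cdkn1a 0.743 over 9, Tsc22d3 0.601 and Tdo2 0.580 over 10, and Sgk1 0.370 over 10. Among the 13246 probes, Tsc22d3 ranked 1845, Tdo2 2036 and Sgk1 3914, while Fkbp5 and Cdkn1a, with missing values, were not ranked. The arrays share their groups and days, and these values only describe likeness.

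The proteins that receive the hormone, release it or act beside the receptor were given by a list of 26 genes, of which 18 had 40 probes, all of them tested. In this list, 0 probes passed the adjusted threshold at any time. At an unadjusted p under 0.01 with 1.4-fold, 1 probe was higher at 12 hours, 1 at 24 hours and 0 at 72 hours, beside 0.378%, 0.413% and 0.314% of all probes, and 0 were lower. The list's median difference from fed was 0.11, 0.16 and 0.15 at 12, 24 and 72 hours, beside medians of all probes of -0.0056, -0.0022 and -0.015. With the low-signal pair left out, 7, 13 and 2 of the 40 probes passed as higher, beside 1.71%, 5.21% and 0.687% of all probes, and 0, 2 and 0 as lower, beside 0.895%, 3.61% and 0.149%. The higher probes at 12 hours were those of Hsp90aa1 and Ncor1, with several probes each, Hspa8 and Stip1. At 24 hours, Crebbp, Smarca4, Foxo1, Cebpa, Cebpb and Cebpd were added, with Fkbp4 and Srd5a1 lower. At 72 hours, the higher probes were those of Foxo1 and Cebpd.

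The receptor itself, Nr3c1, had 2 probes, of which the brighter overlapped with fed at each time. It had ratios of -0.12, 0.03 and -0.32 on the fed arrays and of 0.09, -2.28 and 0.14 after 12 hours, -0.10, 0.29 and -0.53 after 24 hours and -0.02, 0.27 and -0.05 after 72 hours, with differences of -0.55, 0.02 and 0.20 (SE 0.53 each). The values of -2.28 and -0.53 came from the low-signal pair, and the other 12 h arrays lay above the fed arrays. The differences of the other probe were -0.38, -0.09 and 0.36 (SE 0.43 each), and its 72 h arrays, at 0.23, 0.69 and 0.24, lay above its fed arrays, at 0.09, 0.13 and -0.15. So did its 12 h replicates 1 and 3, at 0.14 and 0.31, while the low-signal 12 h array was at -1.525. Hsd11b1, the enzyme that regenerates active hormone inside the hepatocyte, had no probe under its names.

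Hsp90aa1, the heat-shock protein that holds the receptor ready for its hormone, had 4 probes, which did not all move alike. The brightest probe in fed liver differed from fed by 0.59, 0.87 and 0.43 (SE 0.72 each), and the probe with the smallest p in the list differed by 1.15 at 12 hours (unadjusted p = 0.00223) and 1.18 at 24 hours (unadjusted p = 0.00188) and by 0.40 at 72 hours. The latter probe was 0.13, 0.15 and -0.16 on the fed arrays, 1.44, 0.91 and 1.21 after 12 hours and 1.42, 1.63 and 0.60 after 24 hours, without overlap with fed. A further probe, the dimmest, gave 0.16, -0.17 and -0.19.

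Fkbp4, the co-chaperone that takes the opposite role to Fkbp5 on the receptor, had differences of -0.41 and -0.44 at 12 and 24 hours (unadjusted p = 0.0343 and 0.0254) and of 0.01 at 72 hours. Srd5a1, a steroid 5-alpha-reductase that inactivates the hormone, had -0.44, -0.59 and -0.40 (unadjusted p = 0.0132 at 24 hours). Among transcription factors that act beside the receptor, Cebpb differed from fed by 0.46, 0.86 and 0.63 at 12, 24 and 72 hours (unadjusted p = 0.0216 at 24 hours), Cebpd by -0.14, 0.91 and 1.48 (unadjusted p = 0.0261 at 72 hours), and Foxo1 by -0.07, 0.67 and 0.91 (unadjusted p = 0.0441 at 72 hours). Of the same list, and named after their values were seen, Cebpa differed by -0.01, 0.40 and 0.33, Foxa2 by -0.24, -0.07 and 0.0035, and the coactivator Ppargc1a by -0.30, -0.15 and -0.15. At an adjusted p under 0.05, 0 of these passed with all arrays, and those that passed without the low-signal pair are named above. After 12 hours, replicates 1 and 3 were at 0.49 and 0.63 for Cebpd, 0.41 and 0.38 for Foxo1, and 0.74 and 0.66 for Foxa2. These values lay above the fed arrays of each gene, while the low-signal array was at -1.69, -1.33 and -2.05.

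Other genes known to respond to glucocorticoids were listed as 34 genes, of which 17 had 21 probes, all tested. Like the other lists, this one was written with earlier results of these data known, so that its counts are descriptive only. Of these probes, 1, 1 and 2 passed the adjusted threshold as higher at 12, 24 and 72 hours, 0 as lower, and the probes were those of the metallothioneins. At an unadjusted p under 0.01 with 1.4-fold, 2, 4 and 8 of the 21 were higher, beside 0.378%, 0.413% and 0.314% of all probes, and 0 were lower. At least 1.4-fold higher, whatever their p, were 8, 9 and 15, beside 6.68%, 3.4% and 3.68% of all probes. The median difference of the list was 0.35, 0.36 and 0.85 at 12, 24 and 72 hours. On the arrays without the low-signal pair, 5, 8 and 6 probes passed as higher, beside 1.71%, 5.21% and 0.687% of all probes, and 0 as lower, with medians of 0.78, 0.71 and 0.85.

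Mt1, a metal-binding metallothionein, rose by 3.02 at 12 hours (SE 0.24, adjusted p = 0.00469), by 2.47 at 24 hours (SE 0.22, adjusted p = 0.0107) and by 3.51 at 72 hours (SE 0.22, adjusted p = 0.000389). Its ratio was -0.24, -0.09 and -0.25 on the fed arrays and at least 1.90 on each of the 8 fasted arrays with a value. Mt2, its neighbour and close relative, differed by 3.61, 3.17 and 3.80 (SE 0.43 each) and rose at 72 hours (adjusted p = 0.0309). Got1, the cytosolic aspartate aminotransferase, had 2 probes that differed in size: the brighter by 1.37, 1.69 and 1.98, and the other by 2.28, 2.38 and 4.06, with unadjusted p-values at 72 hours of 0.00344 and 0.000258.

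Lpin1, a phosphatidate phosphatase and coactivator, differed by 1.57, 1.85 and 3.06 (unadjusted p = 0.00105 at 72 hours), and Ddit4, an inhibitor of mTORC1, by 0.84, 1.54 and 3.35 (unadjusted p = 0.000893 at 72 hours). The ratio of Ddit4 was 0.06, 0.13 and -0.10 on the fed arrays and 3.82, 4.14 and 2.18 on the 72 h arrays, which did not overlap. Nfkbia, the inhibitor of NF-kappaB, differed by 0.18, 0.35 and 1.05 (unadjusted p = 0.00213 at 72 hours). These 3 genes did not pass the adjusted threshold at 72 hours, with adjusted p-values from 0.754 to 1.00.

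The steps beside Pck1 and Tdo2 in their pathways were listed as 17 genes, of which 5 had a probe with an unambiguous name, 1 each. In this list, 0 probes passed the adjusted threshold, and 1 was higher at an unadjusted p under 0.01 with 1.4-fold, at 72 hours, beside 0.314% of all probes. It was Slc37a4, the transporter that brings glucose 6-phosphate to the phosphatase at the end of gluconeogenesis, with differences of 0.46, 0.90 and 2.10 (SE 0.56 at 72 hours, unadjusted p = 0.00464). Its spots on fed replicate 2 and 72 h replicate 3 were marked as outliers and left out. Pck2, the mitochondrial isoform of the member enzyme, differed by 0.12, 0.15 and 0.01, with an unadjusted p of at least 0.507. Of the others, Fah, the last enzyme of tyrosine breakdown, differed by 0.25, 0.47 and 0.42, Afmid, the enzyme after Tdo2 in tryptophan breakdown, by -0.31, 0.56 and 0.29, and Qprt, the enzyme that leads this pathway into NAD synthesis, by -0.66, -0.19 and -0.23. When the pair of low signal was left out, Slc37a4 and Fah passed as higher at 24 hours and Slc37a4 at 72 hours, beside 5.21% and 0.687% of all probes.

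**Figure D4:**
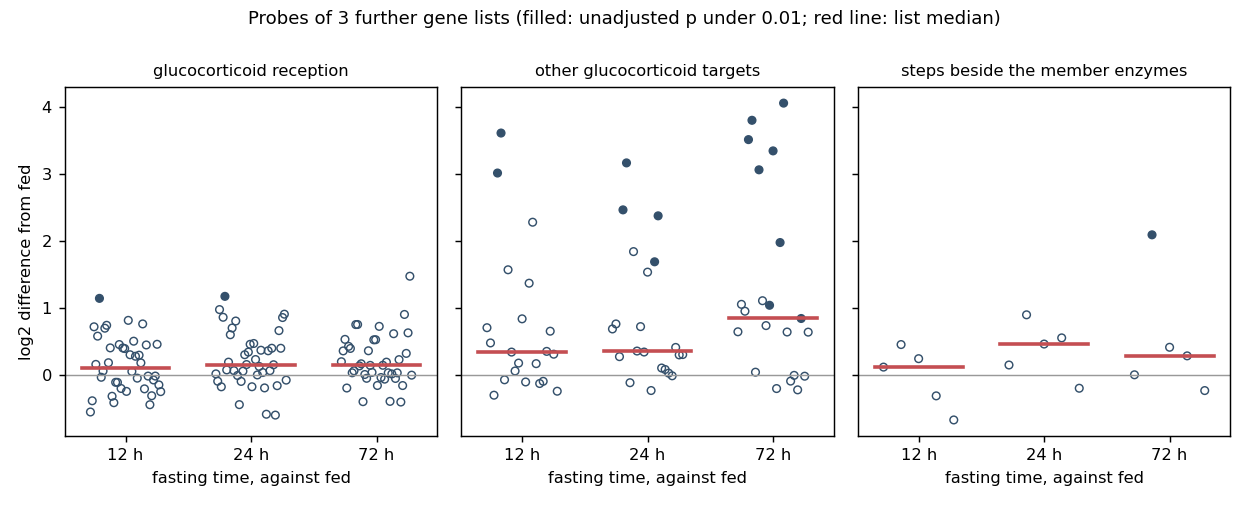
Difference from fed on the log2 scale (y axis) of each probe of the lists of glucocorticoid reception (40 probes), other glucocorticoid targets (21) and steps beside the member enzymes (5) by fasting time (x axis); filled points have an unadjusted p under 0.01, and red lines are list medians. The medians of the second list are 0.35, 0.36 and 0.85, and those of the first stay between 0.11 and 0.16.

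Markers of other cell types were read beside these genes. Of 9 macrophage and leukocyte probes, 7, 8 and 8 lay below fed at 12, 24 and 72 hours. Their median difference was -0.51, -0.31 and -0.23, beside medians of all probes of -0.0056, -0.0022 and -0.015. Their mean log2 ratio per array ranged from -0.17 to 0.27 in fed and from -1.10 to 0.08 at 12 hours. It ranged from -0.61 to 0.02 at 24 hours and from -0.33 to -0.23 at 72 hours. The lowest means at 12 and 24 hours were those of the low-signal pair, and a median without this pair was not computed. The mean of 7 endothelial and stellate probes lay between -0.19 and 0.13 and that of 4 cholangiocyte probes between -0.31 and 0.10 on all arrays, and none of these lists passed the adjusted threshold with any probe. Of the 4 hepatocyte probes, Ttr, a carrier of thyroid hormone that the liver secretes, differed by -1.35 at 72 hours (unadjusted p = 0.00109), and the others by -0.29 to 0.37 at any time. No erythroid or adipose marker had an unambiguous probe, and Cpa1, the only acinar marker measured, ranged from -0.91 to 1.57. The part of these cell types in the members' values was not tested.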

How the data were processed

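Liver RNA was measured on 12 two-colour Agilent mouse oligonucleotide arrays, 3 per group, with the sample labelled with Cy3 and the reference with Cy5 on every array. Groups were taken from the labels' titles and source names. Per the file headers, the deposited intensities are median pixel brightness per spot and local background, as Agilent's Feature Extraction software quantified them, with no normalization. The deposited log10 ratios were background-subtracted and dye-normalized by that software, per the file headers, and the value table holds them with the sign turned. The authors themselves used background-subtracted, quantile-normalized medians and a split-factor ANOVA, whose program was not used here.

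After removal of 1075 control and 91 retired spots from the 21446 on an array, 20280 probes remained. Intensities were corrected with normexp (offset 50), quantile-normalized over 24 channels and turned into log2 ratios (sample over reference), from whose differences a fixed dye effect of a probe cancels. A probe entered the test if 1 group or more had its Cy3 signal well above background throughout. Testing was done with limma 3.58.1 in R 4.3.3 (lmFit and eBayes, 4 groups), with Benjamini-Hochberg adjustment over all probes tested. All p-values outside the permutation tests are from limma, in this fit or in the alternative named beside them, whether adjusted or not. They rest on the spread between arrays, which in this fit holds pools, low signal and day of quantification together. The fit was tested on simulated data.

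The members and lists were chosen with earlier results of these data known. Values are given for all members, for the at most 6 probes of smallest p in each list and for Nr3c1, and for the 5 genes most like Pck1, of which 1 over all arrays is not reported here. Gene names came from the files and were brought to current symbols through RefSeq's gene table (GRCm38.p6), which matched 11199 probes to 8337 symbols, and a probe was left unnamed where the 2 annotation versions of the files (on 9 and 3 arrays) named different genes. Promoter windows were those of RefSeq, build GRCm38.p6. Probe positions were not used here. The number of arrays limits the precision.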

Additional observations from a re-analysis of the deposited data

How the results depend on the processing

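Pck1 stayed above fed at each time under all alternatives fitted, with its lowest values under the day block (0.13 at 12 hours, 0.23 at 24 hours). The 12 h value under the day block rests on no 12 h array with a value from a day that held a fed array. With its marked spot kept, the 12 h array of day A differed from fed replicate 1 by -0.14. A day block with marked spots kept was not fitted. Pck1 passed the adjusted threshold in limma under array weights (0.99, 1.14 and 0.93 at 12, 24 and 72 hours, and 1.02 for all fasted arrays), without the low-signal pair (1.02, 1.12, 0.88 and 1.00) and, at 72 hours, when the fit held only the fed and 72 h arrays (0.88). The members passing were then 3 under array weights at each time (Pck1 and Fkbp5, with Cdkn1a, Tsc22d3 and Sgk1 in turn), 2 without the pair at each time (Pck1 and Fkbp5), and 2 at 72 hours with 2 groups in the fit (the same genes). With the day block, 1 member (Sgk1) passed from 12 to 72 hours, where 3285 of 19014 probes tested passed. Array weights called 1916, 2113 and 826 of all probes, the fit without the pair 523, 1772 and 168, the day block 4543, 2393 and 4 (with 0 members among them), and the fit of all arrays 1, 1 and 2. The fit of only the fed and 72 h arrays called 65 of 20081 probes.

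Of the members uncalled with all arrays, Tdo2 turned sign at 12 hours with the day block (-0.43) and at 24 hours with loess (0.34), the scanner's log ratio (0.23), the sample channel alone (0.32), outlier spots kept (0.072) and no low-signal pair (0.18). Tsc22d3 turned at 12 hours with loess (0.16), the sample channel (0.15), array weights (0.58) and no low-signal pair (0.66), at 24 hours with the day block (-0.99) and at 72 hours with the sample channel (-0.062). Sgk1 turned at 12 hours without the pair (0.12), and at 24 hours with loess (0.021), the sample channel (0.43), array weights (0.23) and no pair (0.23). Leaving out 1 array at a time moved Tdo2 at 24 hours from -0.44 to 0.18, Tsc22d3 from -0.68 to 0.66 at 12 hours and from -0.078 to 0.58 at 72 hours, Fkbp5 from 0.76 to 2.34 at 12 hours, and Sgk1 from -0.97 to 0.12 at 12 hours and from -0.29 to 0.23 at 24 hours. It left the count of members passing at 0 in each comparison, and Pck1 between 0.87 and 1.16, 0.64 and 1.12, and 0.81 and 0.96. The cause of these changes was not tested.

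Replicate numbers did not pair the arrays: of 18 same-numbered pairs, 6 had deviations correlated over 0.1, and 2 of 12 arrays correlated best with their own number. With the replicate block, 0 members passed, Pck1 differed by 1.17, 0.90 and 0.96, and 2, 2 and 2 of all probes were called. Sample signal over background was lowest on the low-signal pair, which limits dim members such as Cdkn1a there.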
